A study of Mus musculus with 217 samples.

Results

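Glutamate receptor genes and the genes of AMPA receptor auxiliary proteins were followed in the striatum and cortex of the LacQ140 mouse, a Huntington's disease (HD) model in which mutant Huntingtin (m*Htt*) can be lowered at a chosen age. The set was a fixed list of 31 gene symbols matched to Ensembl identifiers, out of 54532 genes in the count tables, and its rule uses no measured value, although the list was drawn up with earlier results of these data known. It holds 4 AMPA receptor subunits (*Gria1* to *Gria4*), 7 NMDA receptor subunits (*Grin1*, *Grin2a* to *Grin2d*, *Grin3a* and *Grin3b*) and 5 kainate receptor subunits (*Grik1* to *Grik5*). The delta receptor *Grid1* and 6 metabotropic receptors (*Grm2*, *Grm3*, *Grm4*, *Grm5*, *Grm7* and *Grm8*) follow. The auxiliary genes are *Grip1* and *Grip2*, which code for PDZ scaffolds, and 6 transmembrane AMPA receptor regulatory proteins (TARPs): *Cacng2*, *Cacng3*, *Cacng4*, *Cacng5*, *Cacng7* and *Cacng8*.

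RNA-Seq of 217 libraries covered 107 striata and 110 cortices, 100 at 6 months and 117 at 12 months of age. All mice were C57BL/6 by their labels (C57BL/6J in the study's methods) and carried a Lac repressor transgene under the ubiquitous β-actin promoter. LacQ140 mice were also heterozygous for the Hdh(LacO-140Q/+) allele, a single expanded-CAG knock-in allele with Lac operators in its promoter, and WT mice had the genotype Hdh(LacO-+/+). The lactose analog IPTG releases the repressor, and it was given from embryonic day 5. LacQ140 received it throughout, LacQ140_2M and LacQ140_8M until 2 and 8 months, and LacQ140_A never, so that m*Htt* was repressed from conception. The repression is partial, and the paper describes the lowering as moderate. WT mice without IPTG (WT) and with it throughout (WT + IPTG) were the controls, and LacQ140_8M was sampled at 12 months only. Each of the 22 groups of one tissue and age held 10 mice, 5 of each sex, except that WT, LacQ140 and LacQ140_8M held 9 in the 12-month striatum. The 6- and 12-month libraries carry different batch labels, so age and batch cannot be told apart.

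Glutamate released from cortical and thalamic axons is the main excitatory input of striatal projection neurons. AMPA receptors carry the fast current, NMDA receptors add a slower calcium current that depends on voltage, and kainate receptors act on both sides of the synapse. Metabotropic receptors signal through G proteins: group I excites, while groups II and III inhibit adenylyl cyclase and often sit on presynaptic terminals or glia. TARPs bring AMPA receptors to the synapse and set their gating, and altered glutamate signaling in the striatum is a long-standing theme of HD research.

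Levels are TMM-scaled CPM, counts divided by library size and scaled to a common total, and library totals lay between 33292057 and 68038831 counts. *Htt*, whose counts do not separate the alleles, averaged 102 CPM in 6-month LacQ140 striatum against 87.7 CPM in LacQ140_A (log2 fold change -0.21, adjusted p = 0.075). At 12 months the means were 111 and 93.4 CPM (-0.25, adjusted p = 0.049), and LacQ140_8M averaged 111 CPM, as LacQ140 did. Striatal projection neuron markers summed to 6581 to 9752 CPM in 6-month WT + IPTG striatum and to 334.1 to 631 CPM in cortex, while cortical excitatory neuron markers summed to 101 to 196 and to 1450 to 2013 CPM, so the tissue labels match their markers. A single striatal library, LacQ140 male replicate 2 at 12 months, reached 462 CPM of the cortical markers, where the WT + IPTG libraries of that age ended at 194 CPM. Libraries of the 12-month cortex held little signal from long transcripts: the slope of log2 CPM on log2 transcript length was -0.36 to 0.07 there and 0.12 to 0.54 in the other libraries.

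The first question was where these genes are expressed when m*Htt* is absent. Genes were compared per kilobase of their longest protein-coding transcript, so their order depends on that length. *Grin1*, the subunit that every NMDA receptor needs, stood first in 6-month WT + IPTG striatum at 81.4 ± 11.6 CPM per kb (SD, n = 10). The AMPA subunit *Gria1* followed at 68.5 ± 5.84 and the TARP *Cacng7* at 64.2 ± 6.1 CPM per kb. *Gria1* and *Cacng7* differed by less than the SD of either. At the low end stood *Grm2* at 0.33 ± 0.117 and *Grin3b* at 0.179 ± 0.0464 CPM per kb. Among NMDA subunits that bind glutamate, *Grin2c* stood at 8.72 ± 1.11, *Grin2b* at 7.63 ± 1.18, *Grin2a* at 4.3 ± 0.616 and *Grin2d* at 1.19 CPM per kb. *Grin2c* and *Grin2b* differed by less than the SD of either. Their order rests on transcript lengths of 4895 and 24060 bases, and in CPM *Grin2b* stood above *Grin2c*.

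Striatum and cortex of the same mice differed in 22 of the 31 genes at 6 months (12 higher and 10 lower in striatum), with 27.5% of all genes called, 13.4% higher and 14.1% lower. Over genes kept by edgeR's filterByExpr, which drops low counts, the share was 49.9%. A gene was called where its adjusted p was under 0.05 and its level changed by at least 20%. Of the genes higher in striatum, the TARP *Cacng4* stood at 34.8 ± 5.37 against 8.1 ± 0.649 CPM per kb in cortex (log2 difference 2.08, SE 0.067, adjusted p = 7.7e-35). The group III receptor *Grm4*, known from the terminals of striatal neurons that project to the globus pallidus, stood at 12.0 ± 2.25 against 3.42 ± 0.301 CPM per kb (1.78, SE 0.083). The kainate subunit *Grik2* (1.44, SE 0.064) and the group I receptor *Grm5* (1.07, SE 0.11) came next among genes above 1 CPM. *Grin3b* was higher in striatum too (2.08, SE 0.25), at 0.586 against 0.132 CPM. Its exons overlap *Tmem259* on the other strand, and without a stated strand setting its reads cannot be told apart from those of its neighbour. The group II receptor *Grm2* had the largest difference of all 31 genes, at 1.56 ± 0.551 CPM in striatum against 28.6 ± 3.39 CPM in cortex (-4.24, SE 0.16). Also lower in striatum were *Grik1* (-1.18), *Grin3a* (-0.8), *Cacng7* (-0.78), *Grin2a* and *Grik4* (both -0.68), *Grip2* (-0.66), *Grm8* (-0.43), and *Gria3* and *Cacng2* (both -0.35). The other genes higher in striatum were *Gria1* (0.67), *Grid1* (0.48), *Grm3* (0.46), *Grm7* (0.4), *Gria2* (0.35), *Cacng5* (0.29) and *Grik3* (0.28).

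**Figure D1:**
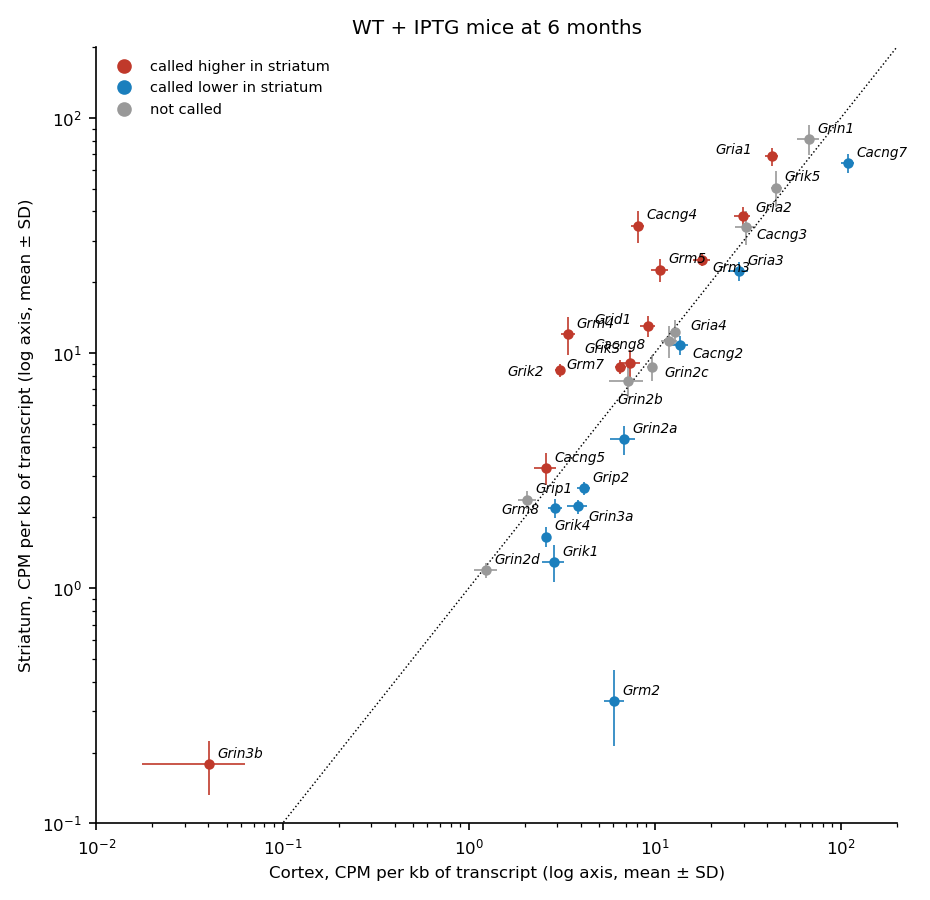
Level of each of the 31 genes in striatum (vertical) against cortex (horizontal) of 6-month WT + IPTG mice, in CPM per kb of transcript on log axes, as mean ± SD of 10 mice per tissue. Red and blue mark genes called higher and lower in striatum, grey marks the rest, and the dotted line marks equal levels. *Cacng4*, *Grm4* and *Grik2* lie well above the line and *Grm2* far below it.

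At 12 months 28 of the 31 genes differed between the tissues, 25 of them higher in striatum and 3 lower, with 45.4% of all genes called, 22.6% higher and 22.9% lower, and 16127 of the 19913 genes kept by filterByExpr were called. *Grin2b*, which codes for a very long transcript, averaged 172 CPM in 6-month and 13.9 CPM in 12-month WT + IPTG cortex, while its striatal means were 184 and 295 CPM. The shift goes with the loss of long-transcript signal in the 12-month cortex libraries, whose part in it was not tested, and tissue levels are therefore read from the 6-month mice.

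The main question was what m*Htt* does to these genes in the striatum, and it was asked by comparing LacQ140 with WT + IPTG. At 6 months 5 genes passed: *Grin2c*, *Grm3*, *Grm4* and *Cacng3* were lower in LacQ140, and *Grip1* was higher. At 12 months 11 genes passed, all lower: *Gria3*, *Grin2b*, *Grin2c*, *Grin3b*, *Grik2*, *Grm3*, *Grm4*, *Grm5*, *Cacng2*, *Cacng3* and *Cacng4*. With the transcript length slope as covariate, *Gria3* and *Grin2b* (both -0.25) were no longer called at 12 months, and *Grip1* and *Grik4* (both 0.27) were called higher. The members called made up 16.1% of the 31 at 6 months, where 7.93% of all genes were called (3.97% higher and 3.96% lower), and 35.5% at 12 months, where 9.44% were called (4.86% lower). These shares are over all genes with at least 1 count. Over the genes kept by filterByExpr, which kept all 31 members, 15.8% were called at 6 months and 18.3% at 12 months, with the number of members called again 5 and 11. The 6-month share of the members is thus near that of expressed genes. The median log2 fold change of the members was 0.01 at 6 months and -0.17 at 12 months, beside 0.0 over all genes tested at each age. *Cacng3*, *Grin2c*, *Grm3* and *Grm4* were called lower at both ages, which is 80.0% of the 6-month and 36.4% of the 12-month calls. The matching shares over all genes were not counted, so whether this is particular to the members cannot be read from them. Without the LacQ140 library rich in cortical markers the 12-month count was 12, with *Grik5* added. Striatal tissue was sequenced in bulk, so fewer cells of a type and less RNA per cell cannot be told apart.

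**Figure D2:**
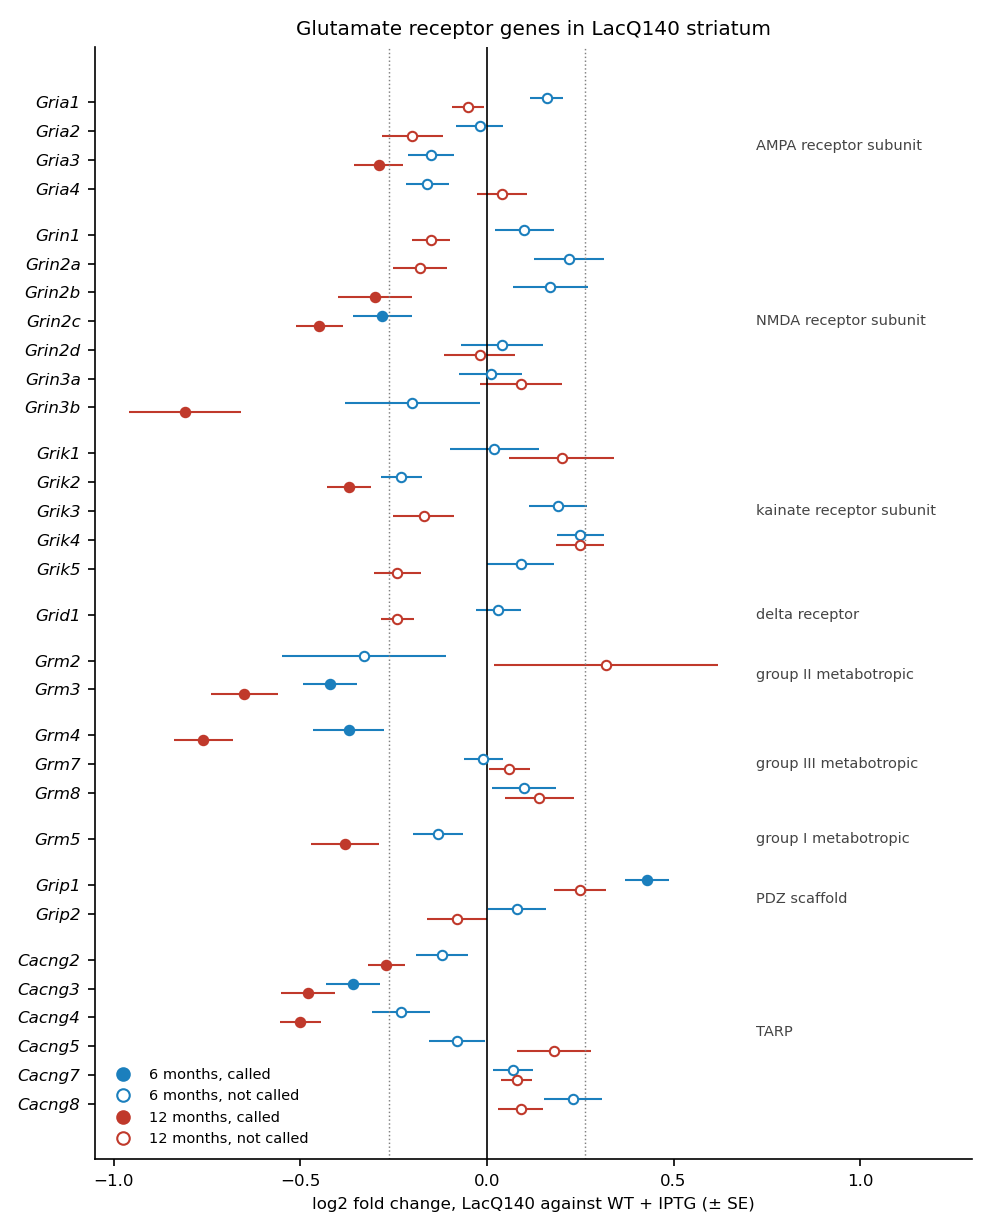
Log2 fold change (± SE) of each gene in LacQ140 against WT + IPTG striatum at 6 months (blue) and 12 months (red), grouped by role. Filled points are genes called, and dotted lines mark a 20% change. The filled 12-month points all lie left of zero, and the filled 6-month point of *Grip1* at 0.43 is the only one to the right.

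Of the 6 metabotropic receptors, *Grm3* and *Grm4* were called at both ages and *Grm5* at 12 months. *Grm4* ranged over 41.8, 56.2 and 68.5 CPM (lowest, median and highest) in 6-month WT + IPTG striatum and over 32.7, 43.1 and 55.4 CPM in LacQ140. At 12 months the same values were 65.1, 93.7 and 110 CPM in WT + IPTG and 43.2, 53.7 and 71.1 CPM in LacQ140. The groups overlapped at both ages, at 12 months through 1 WT + IPTG mouse, male replicate 5 at 65.1 CPM. *Grm4* was lower in LacQ140 at both ages: the log2 fold change was -0.37 at 6 months (SE 0.095 and adjusted p = 0.0044) and -0.76 at 12 months (SE 0.078 and adjusted p = 3.9e-12). *Grm4* lies on chromosome 17, from 27422387 to 27521403 (GRCm38, minus strand).

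*Grm3*, a group II receptor found on astrocytes as well as neurons (chromosome 5, 9485541 to 9725170, minus strand), showed 69.2, 76.0 and 84.3 CPM in 6-month WT + IPTG striatum. LacQ140 mice of that age had 49.4, 57.2 and 64.2 CPM, below every WT + IPTG mouse (-0.42, SE 0.072, adjusted p = 2.2e-05). At 12 months WT + IPTG mice spread from 49.2 to 96.6 CPM around a median of 75.1, and LacQ140 mice from 41.8 to 52.4 CPM around 46.3. The change was then -0.65 (SE 0.089, adjusted p = 2.8e-08), with the groups overlapping at their edge. *Grm5*, the group I receptor of projection neurons, had 155, 199 and 223.3 CPM in 12-month WT + IPTG and 110, 145 and 205 CPM in LacQ140. It was lower at 12 months (-0.38, SE 0.091, adjusted p = 0.0013) and did not pass at 6 months (-0.13, adjusted p = 0.22). *Grm2* (-0.33 and 0.32), *Grm7* (-0.01 and 0.06) and *Grm8* (0.1 and 0.14) did not pass at either age. *Grm2* reached 8.86 CPM in the 12-month LacQ140 library rich in cortical markers, and the other LacQ140 libraries of that age stood at 1.02 to 2.21 CPM, and without it the *Grm2* change was -0.38 (adjusted p = 0.46).

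Of the NMDA receptor subunits, *Grin2c* was called at both ages. This subunit, known best from cerebellar granule cells and astrocytes, had 35.5, 42.4 and 54.2 CPM in 6-month WT + IPTG striatum and 25.9, 35.1 and 46.5 CPM in LacQ140 (-0.28, SE 0.079, adjusted p = 0.012). At 12 months the ranges separated, with 48.1, 56.7 and 63.9 CPM in WT + IPTG and 35.6, 40.6 and 45.8 CPM in LacQ140 (-0.45, SE 0.063, adjusted p = 4.5e-08). Leaving out 1 library at a time kept the 6-month call in 15 of 20 fits (-0.33 to -0.23), and it lapsed without LacQ140 M2, M4 or M5 or WT + IPTG F3 or F5, where letter and number give sex and replicate. *Grin2b*, the subunit that prolongs NMDA currents, ran at 235, 294 and 340 CPM in 12-month WT + IPTG and 172, 249 and 316 CPM in LacQ140. Its ranges overlapped widely, and its call (-0.3, SE 0.099, adjusted p = 0.032) held in 11 of 19 such fits (-0.35 to -0.24) and lapsed without LacQ140 F1, F3, M1 or M4 or WT + IPTG F1, F2, F4 or F5. It lapsed as well with the length slope as covariate, at -0.25. *Grin3b* was lower at 12 months (-0.81, SE 0.15, adjusted p = 3.1e-05), from a median of 1.01 CPM to one of 0.56 CPM, with the overlap with *Tmem259* named above. *Grin1* (-0.15, adjusted p = 0.027 at 12 months) stayed under the 20% bound. *Grin2a* (0.22 and -0.18), *Grin2d* (0.04 and -0.02) and *Grin3a* (0.01 and 0.09) did not pass at 6 or 12 months.

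In the RefSeq promoter table used here (GRCm38.p6) 21 of the 31 genes were matched, with 27 promoters. For the genes lower at both ages, those of *Grin2c* and *Grm3* are shown, as the 250 bases before the RefSeq start. They are written 5′ to 3′ on the minus strand as RefSeq gives it, with each GC box (GGGCGG, searched on both strands) in capitals, and lie at chr11:115267244-115267493 and chr5:9725353-9725602.
Grin2c: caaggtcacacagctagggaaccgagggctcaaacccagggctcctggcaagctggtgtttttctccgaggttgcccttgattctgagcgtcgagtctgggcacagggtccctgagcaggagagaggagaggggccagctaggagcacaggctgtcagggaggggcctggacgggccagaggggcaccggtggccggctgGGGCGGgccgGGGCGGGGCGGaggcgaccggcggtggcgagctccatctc
Grm3: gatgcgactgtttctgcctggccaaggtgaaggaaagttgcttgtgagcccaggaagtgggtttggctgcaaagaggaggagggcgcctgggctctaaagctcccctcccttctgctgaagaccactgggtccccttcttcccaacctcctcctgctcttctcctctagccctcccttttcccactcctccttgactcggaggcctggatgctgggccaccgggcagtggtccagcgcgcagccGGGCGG
The *Grin2c* window holds 3 GC boxes and 68.8% G and C, and the *Grm3* window 1 GC box and 62.4%. The bases after the RefSeq start match a GENCODE transcript of *Grin2c*. For *Grm3* they match none, as its RefSeq start lies upstream of the annotated gene, so the orientation of that window was not checked. A GC box stands in 12 of the 27 member promoters and in 32.7% of all 32851. The cAMP response element TGACGTCA stands in 0 of the 27 and in 1.55% of all, its shorter form TGACG in 3 and 17.8%, the CCAAT box in 7 and 33.8%, and TATAAA in 2 and 12.4%. *Grm4* was not matched, and the *Cacng3* window overlaps an exon and is not printed.

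Of the 6 TARPs, *Cacng3* was called lower at 6 months, and *Cacng2*, *Cacng3* and *Cacng4* at 12 months. *Cacng3* (chromosome 7, 122670492 to 122769393, plus strand) had 70.3, 95.3 and 118 CPM in 6-month WT + IPTG striatum and 61.7, 74.1 and 87.1 CPM in LacQ140 (-0.36, SE 0.072, adjusted p = 0.00023). At 12 months it had 90.2, 129 and 148 CPM against 69.8, 91.3 and 106 CPM (-0.48, SE 0.073, adjusted p = 4.6e-07). The medians were lower in LacQ140 at both ages and the ranges overlapped. *Cacng4*, the TARP that marked the striatum most strongly, separated at 12 months: all WT + IPTG mice lay at 150 to 194 CPM and all LacQ140 mice at 113 to 147 CPM (-0.5, SE 0.054, adjusted p = 2.2e-11). At 6 months its adjusted p was 0.041 with a change under 20% (-0.23). *Cacng2*, the founding TARP stargazin, was lower at 12 months (79.9, 91.9 and 95.2 CPM against 68.04, 74.5 and 87.9 CPM; -0.27, SE 0.049, adjusted p = 2e-05), a call that lapsed without LacQ140 M3 or M4, at -0.25. *Cacng8* passed the adjusted p at 6 months only (0.23, adjusted p = 0.041). *Cacng5* (-0.08 and 0.18) and *Cacng7* (0.07 and 0.08) did not pass.

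**Figure D3:**
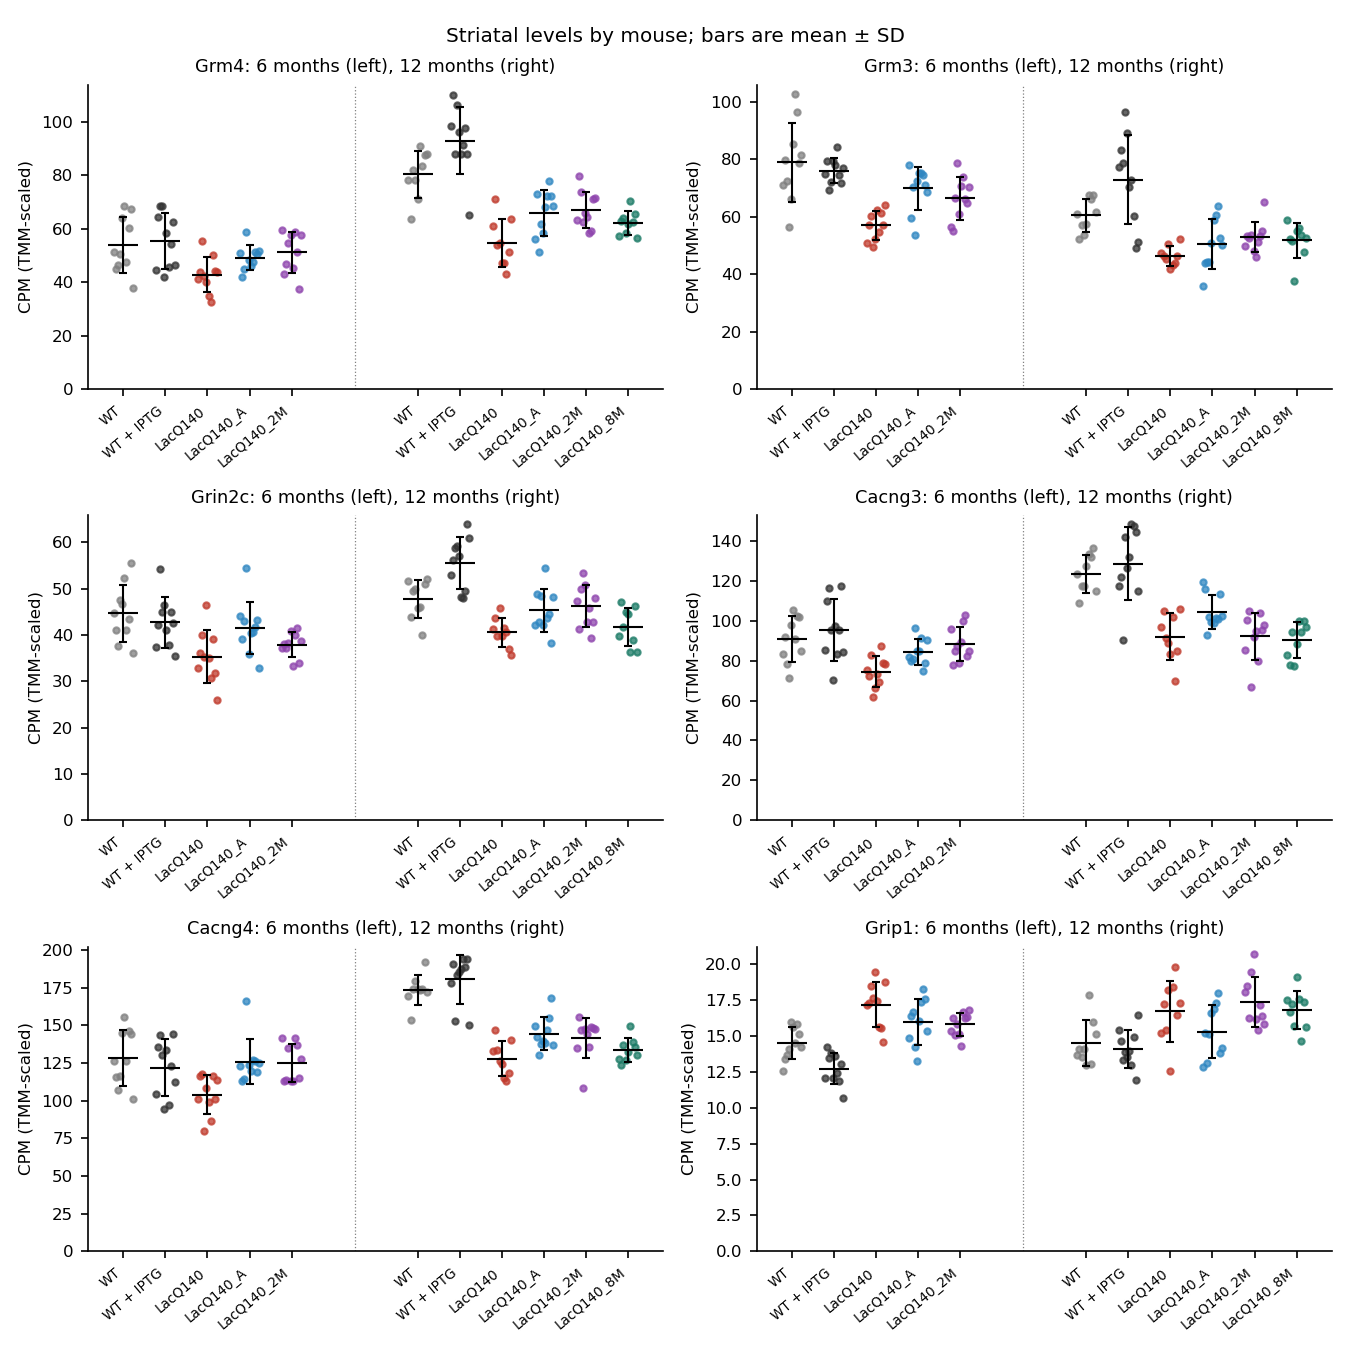
Striatal CPM of 6 genes in every mouse, by group, with 6 months on the left and 12 months on the right of each panel; horizontal bars are the mean and vertical bars the SD. *Grm4* at 12 months falls from a WT + IPTG median of 93.7 to 53.7 CPM in LacQ140, with the lowered groups between, and *Grip1* is the gene whose LacQ140 mice lie above WT + IPTG at 6 months.

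Of the 4 AMPA receptor subunits, 0 were called at 6 months and 1, *Gria3*, at 12 months. *Gria3* had 98.5, 125.4 and 130 CPM in WT + IPTG and 80.0, 101 and 113 CPM in LacQ140 at 12 months (-0.29, SE 0.066, adjusted p = 0.00066). The call lapsed without LacQ140 M1, at -0.26, and with the length slope as covariate, at -0.25. *Gria1*, the subunit inserted during plasticity, stood at 424 against 380 CPM at 6 months (0.16, adjusted p = 0.011, under the 20% bound) and at 445 against 461 CPM at 12 months (-0.05, adjusted p = 0.58). *Gria2*, whose edited form blocks calcium entry, had changes of -0.02 (adjusted p = 0.92) and -0.2 (adjusted p = 0.11). *Gria4* had -0.16 (adjusted p = 0.049) and 0.04. *Grip1*, a scaffold that binds AMPA receptor tails, was the member that rose: WT + IPTG mice had 10.7, 12.7 and 14.2 CPM at 6 months, and LacQ140 mice 14.5, 17.3 and 19.4 CPM, all above them (0.43, SE 0.059, adjusted p = 1.9e-07). At 12 months the groups overlapped (11.9, 13.9 and 16.5 against 12.5, 17.2 and 19.8 CPM) and the change of 0.25 (adjusted p = 0.0097) was under the bound. *Grip2* had 0.08 and -0.08.

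Among kainate receptors, *Grik2* separated the groups at 12 months, with 62.2, 65.9 and 72.5 CPM in WT + IPTG and 43.4, 52.0 and 60.8 CPM in LacQ140 (-0.37, SE 0.058, adjusted p = 1e-06). Its 6-month change of -0.23 (adjusted p = 0.0017) was under the bound. The high-affinity subunit *Grik4* moved the other way by a similar amount at both ages (0.25 each, adjusted p = 0.0038 and 0.0025), also under the bound. *Grik5*, the other high-affinity subunit, had 0.09 at 6 months and -0.24 at 12 months (adjusted p = 0.0032, under the bound). *Grik3* (0.19 and -0.17) and *Grik1* (0.02 and 0.2) did not pass. The delta receptor *Grid1*, which links to cerebellin and neurexin across the synapse, had 90.7, 95.7 and 106 CPM in 12-month WT + IPTG and 68.6, 82.2 and 89.8 CPM in LacQ140. The ranges did not overlap, yet the change of -0.24 (SE 0.045, adjusted p = 3.6e-05) fell short of 20%. Groups did not overlap for 2 members at 6 months (*Grip1* and *Grm3*), where this held for 1.15% of all genes, and for 4 at 12 months (*Grin2c*, *Grik2*, *Grid1* and *Cacng4*), where it held for 2.07%.

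Of 49 other glutamate synapse genes on a fixed list, 1 was called higher and 8 lower in LacQ140 striatum at 6 months, and 1 higher and 19 lower at 12 months. That is 18.4% and 40.8% of the list, beside 7.93% and 9.44% of all genes with at least 1 count and 15.8% and 18.3% of those kept by filterByExpr. At 12 months 8 of 19 receptor partners, 8 of 18 postsynaptic density genes and 3 of 10 transporter and glutamate synthesis genes were lower. *Neto2*, a kainate receptor auxiliary that also binds *Grik2* protein, averaged 49.4 CPM in LacQ140 against 87.96 in WT + IPTG at 6 months (-0.83, adjusted p = 6.3e-13), and 46.01 and 92.9 CPM at 12 months (-1.01, adjusted p = 5.8e-15). *Gsg1l*, an AMPA receptor auxiliary, was lower at 12 months (-0.75, adjusted p = 4.6e-18), as was the scaffold *Shank3* (-0.85, adjusted p = 1.1e-14). At 6 months *Homer1*, which ties group I receptors to the postsynaptic density, was lower (-0.73, adjusted p = 8.8e-10), as was the glutamine carrier *Slc38a2* (-0.42, adjusted p = 2.4e-05). At that age *Slc38a2* was also called higher in WT + IPTG than in WT striatum, and it was not called in LacQ140_A against WT. *Lrrtm4* was the gene higher at 6 months (0.34, adjusted p = 5.5e-06) and *Cnih3*, an AMPA receptor auxiliary, the one higher at 12 months, at 16.2 against 8.59 CPM (0.92, adjusted p = 3e-05). The 12-month LacQ140 library rich in cortical markers held 33.7 CPM of *Cnih3* and the other LacQ140 libraries 11.7 to 18.4 CPM, and without it the change was 0.71 (adjusted p = 0.00061).

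Cell type markers moved with these changes. Of 10 striatal projection neuron markers, 8 were lower in LacQ140 at 6 months (median log2 fold change -0.36) and 9 at 12 months (-0.8). Their sum was 6581 to 9752 CPM in WT + IPTG mice and 5323 to 6965 CPM in LacQ140 mice at 6 months. At 12 months it was 8217 to 11520 CPM and 4806 to 6076 CPM, without overlap. Of 6 astrocyte markers 1 was lower at each age (*Aqp4*, then *Aldoc*), and their sum was 2336 to 2894 against 1879 to 2330 CPM at 6 months and 1970 to 2369 against 1791 to 2063 CPM at 12 months. Oligodendrocyte markers were lower in 3 of 5 at 6 months and 2 of 5 at 12 months, microglial ones in 4 of 5 and 1 of 5, and 1 of 3 choroid plexus markers, *Ttr*, at both ages. The choroid plexus sum had 6-month medians of 23.9 CPM in LacQ140 and 23.7 in WT + IPTG, with highest libraries at 69.2 and 701 CPM. The 12-month medians were 11.8 and 19.8 CPM, with highest libraries at 21.3 and 400 CPM. At 6 months the oligodendrocyte sum was 11980 to 15530 CPM against 9171 to 11460 CPM in LacQ140, and the microglial sum 238.9 to 306.6 against 201.3 to 244.9 CPM. WT mice without IPTG had 10350 to 14840 and 217.3 to 296.4 CPM, overlapping LacQ140. *Mobp*, among the lower oligodendrocyte markers, and *Ttr* were called higher in WT + IPTG than in WT striatum at 6 months. Of 8 cortical excitatory markers 2 were lower at 6 months and 2 higher at 12 months. Interneuron markers had 1 lower at 6 months (*Pvalb*), endothelial markers 1 at 12 months (*Flt1*), and oligodendrocyte precursor markers 0. The part of these shifts in the receptor changes was not tested.

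In the cortex the same comparison gave 1 member at 6 months, with 0.881% of all genes called, 0.503% lower, and 2.4% of those kept by filterByExpr, so 1 of 31 is near that share. *Grm3* was lower there too, with 45.7, 54.5 and 62.1 CPM in WT + IPTG and 37.5, 43.6 and 50.6 CPM in LacQ140 (-0.34, SE 0.089, adjusted p = 0.039), and its ranges overlapped. *Grik4* had 0.23 (adjusted p = 0.034, under the bound). At 12 months 0 members were called by edgeR, with 0.0899% of all genes called, and DESeq2 called 0 as well. An unadjusted p under 0.05 was found for 2 members and 8.68% of all genes. With only the groups compared in the fit, 0 members and 1.41% of all genes were called. The lowest adjusted p among the members was 0.32. Levels in the 12-month cortex were low for several of the genes that changed in striatum, *Cacng4* at 8.06 and *Grm4* at 4.57 CPM in WT + IPTG.

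The difference between the tissues was tested within mice. At 6 months 0 members passed (1.12% of all genes called, and 5 members and 8.62% of all genes at an unadjusted p under 0.05), and *Grip1* came nearest (0.31, adjusted p = 0.094). At 12 months the LacQ140 change was lower in striatum than in cortex for 6 members, with 2.8% of all genes called, 1.85% lower, and 6.59% of those kept by filterByExpr. *Grm4* differed by -0.84 (SE 0.19, adjusted p = 0.0038) and *Cacng4* by -0.76 (SE 0.16, adjusted p = 0.0011). *Grid1* (-0.64, adjusted p = 0.038), *Grm3* (-0.45, adjusted p = 0.0098), *Cacng3* (-0.44, adjusted p = 0.014) and *Grik2* (-0.38, adjusted p = 0.0021) were the others. The *Grid1* difference did not pass with the tissues unpaired (-0.6, adjusted p = 0.065). For *Grid1* the cortical means were 20.9 CPM in LacQ140 against 16.3 in WT + IPTG, a change of 0.36 that did not pass (adjusted p = 0.56). The 12-month cortex libraries carry the length slope given above, and its part in these differences was not tested.

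**Figure D4:**
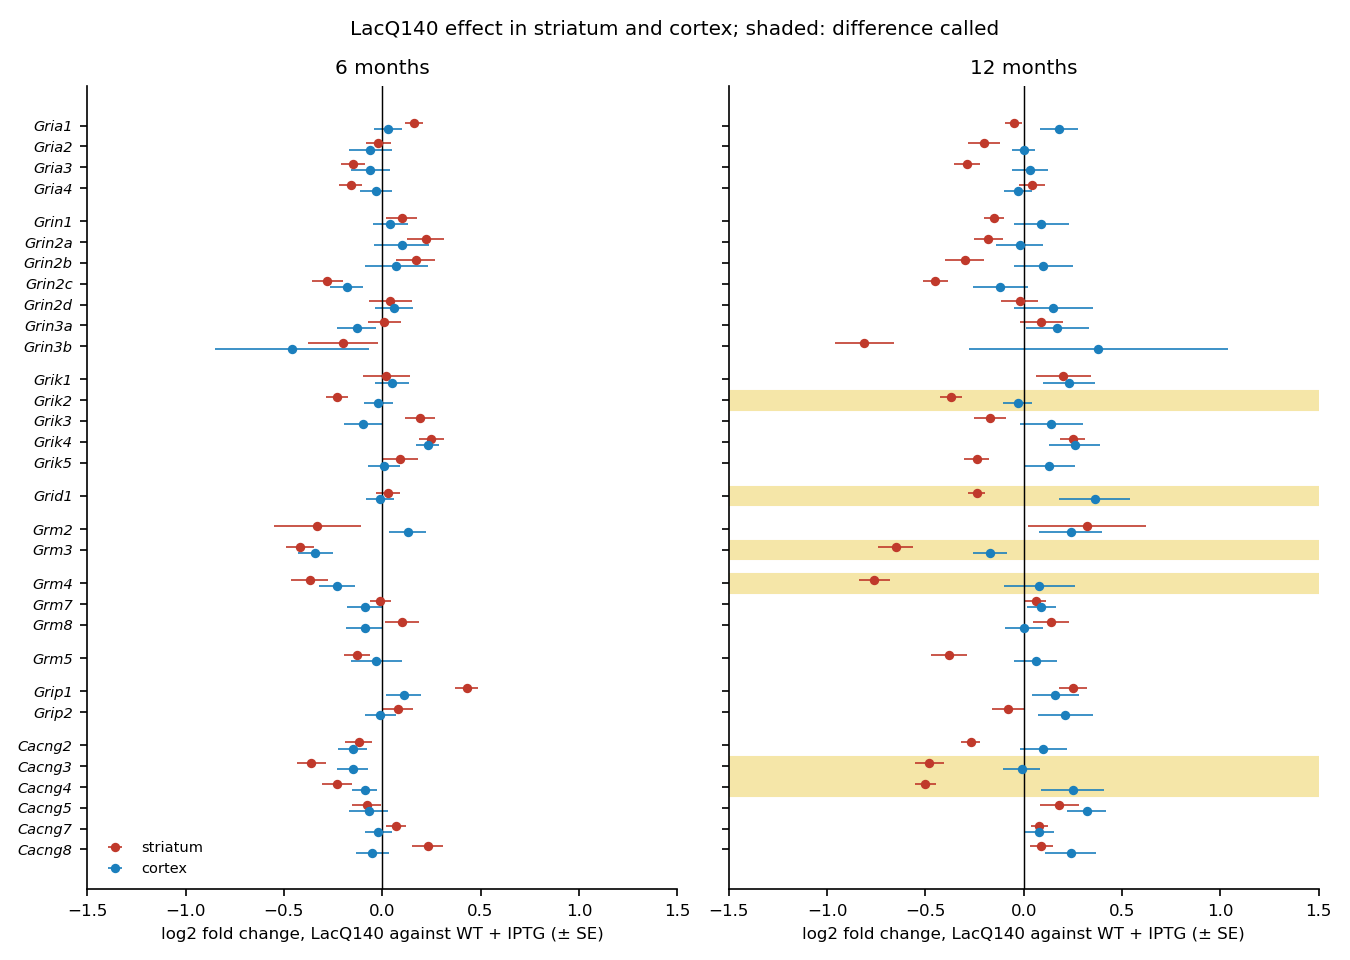
Log2 fold change (± SE) of each gene in LacQ140 against WT + IPTG, in striatum (red) and cortex (blue), at 6 months (left) and 12 months (right). Shaded rows are the 6 genes whose change was called different between the tissues, all at 12 months and all lower in striatum.

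IPTG itself was checked in WT mice. No member was called in striatum at 6 months (0.584% of all genes called, lowest adjusted p among members 0.15) or 12 months (0.218%, 0.1), nor in cortex at 6 months (0.609%, 0.23) or 12 months (0.0%, 0.79). At an unadjusted p under 0.05 there were 3 and 4 members in striatum (8.88% and 11.4% of all genes) and 5 and 1 in cortex (11.9% and 5.8%), and DESeq2 called 0 in each. The striatal values reached -0.27 for *Grin3b* at 6 months (adjusted p = 0.72) and 0.27 for *Grm3* at 12 months (adjusted p = 0.15), the latter with WT at 52.3, 61.0 and 67.7 CPM beside the WT + IPTG values above.

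Lowering of m*Htt* was read by comparing each lowered group with LacQ140, the libraries of which also enter the comparison with WT + IPTG. LacQ140 was on IPTG when sampled and the lowered groups were not. Each such comparison thus changes IPTG exposure together with m*Htt*, and the 2 cannot be told apart within it. In 6-month striatum LacQ140_A had 2 members called higher, with 1.88% of all genes called, 1.3% higher, and 3.96% of those kept by filterByExpr. *Grm3* had 53.6, 71.7 and 78.0 CPM in LacQ140_A beside 49.4, 57.2 and 64.2 CPM in LacQ140 (0.29, SE 0.072, adjusted p = 0.011). *Cacng4* had 113, 123 and 166 CPM beside 80.1, 105 and 117 CPM (0.27, SE 0.078, adjusted p = 0.04), a call that held in 11 of 20 fits with 1 library left out (0.22 to 0.3). It lapsed without LacQ140 F1, F4, M1, M2 or M4 or LacQ140_A F1, F4, M2 or M3, and with the replicate number as a block. Medians of both genes in LacQ140_A lay between those of LacQ140 and WT + IPTG, which were 76.0 CPM for *Grm3* and 127 CPM for *Cacng4*. In LacQ140_2M 0 members were called at 6 months (1.26% of all genes, 0 members by DESeq2, and 11 members and 11.1% of all genes at an unadjusted p under 0.05), with *Cacng3* at 0.25 (adjusted p = 0.06) and *Cacng4* at 0.27 (adjusted p = 0.063). *Grik4* had 8.84, 10.1 and 10.94 CPM in LacQ140_2M beside 10.94, 11.5 and 13.1 CPM in LacQ140 (-0.21, adjusted p = 0.082). Its groups touched at 10.94 CPM without overlapping, and 0.162% of all genes did not overlap here. *Grik2* passed the adjusted p in both groups under the 20% bound, at 0.22 (adjusted p = 0.012) in LacQ140_A and 0.23 (adjusted p = 0.015) in LacQ140_2M. *Grip1* in LacQ140_A and LacQ140_2M kept medians of 16.2 and 16.0 CPM, beside 17.3 CPM in LacQ140 and 12.7 in WT + IPTG.

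At 12 months edgeR called 0 members in each lowered group of the striatum. The share of all genes called was 0.91% in LacQ140_A, 0.608% in LacQ140_2M and 0.00565% in LacQ140_8M, and 6, 9 and 8 members had an unadjusted p under 0.05, as had 10.4%, 8.32% and 5.13% of all genes. *Grm4* had medians of 68.4, 65.1 and 62.5 CPM in LacQ140_A, LacQ140_2M and LacQ140_8M, between 53.7 CPM in LacQ140 and 93.7 in WT + IPTG. Its change against LacQ140 was 0.27 (adjusted p = 0.065) in LacQ140_A and 0.29 (adjusted p = 0.052) in LacQ140_2M, and DESeq2 called it in both. *Grid1* passed the adjusted p in LacQ140_2M (0.19, adjusted p = 0.019) under the 20% bound. In LacQ140_8M the lowest adjusted p of a member was 0.86, and DESeq2 called 0. *Htt*, counted over both alleles, averaged 111 CPM in LacQ140_8M as in LacQ140, so these counts show no lowering there. *Cacng3* had medians of 102, 95.2 and 94.2 CPM in the 3 groups, beside 91.3 CPM in LacQ140 and 129 in WT + IPTG. In the cortex no lowered group had a member called, by edgeR or DESeq2, with 0.00834% and 0.0% of all genes called in LacQ140_A and LacQ140_2M at 6 months and 0.0435%, 0.0841% and 0.0% in LacQ140_A, LacQ140_2M and LacQ140_8M at 12 months. An unadjusted p under 0.05 was found for 0 to 5 members and for 2.83% to 13.2% of all genes. The 12-month share of LacQ140_A depended on the groups in the fit: with only the groups compared, 6.06% of all genes and 1 member (*Cacng4*, lower) were called.

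Across all groups, the genes called at both ages lay as follows in striatum, each as lowest, median and highest mouse. *Grm4* had 37.98, 50.98 and 68.5 CPM in WT, 42.1, 49.4 and 58.7 CPM in LacQ140_A and 37.4, 52.9 and 59.3 CPM in LacQ140_2M at 6 months. At 12 months it had 63.6, 81.9 and 90.7 CPM in WT, 51.3, 68.4 and 78.0 CPM in LacQ140_A, 58.3, 65.1 and 79.8 CPM in LacQ140_2M and 56.5, 62.5 and 70.3 CPM in LacQ140_8M. The 3 lowered groups overlapped one another and LacQ140, and at that age their medians were below both WT groups. *Grm3* at 6 months had 56.4, 79.1 and 103 CPM in WT and 54.9, 66.5 and 78.9 CPM in LacQ140_2M. At 12 months it had 35.9, 50.5 and 63.7 CPM in LacQ140_A, 46.1, 53.0 and 65.2 CPM in LacQ140_2M and 37.8, 52.7 and 58.8 CPM in LacQ140_8M. These medians lay above the 46.3 CPM of LacQ140 and below the 61.0 CPM of WT, with overlap throughout. *Grin2c* had 36.2, 44.1 and 55.6 CPM in WT, 32.8, 41.1 and 54.4 CPM in LacQ140_A and 33.2, 38.1 and 41.4 CPM in LacQ140_2M at 6 months. The 12-month mice had 40.1, 49.4 and 52.1 CPM in WT, 38.3, 44.1 and 54.4 CPM in LacQ140_A, 39.4, 46.6 and 53.4 CPM in LacQ140_2M and 36.3, 41.7 and 47.02 CPM in LacQ140_8M. LacQ140 had the lowest median at both ages. At 12 months all LacQ140 and LacQ140_8M mice lay below all WT + IPTG mice, while the other groups overlapped. Such separation from WT + IPTG held for 2.07% of all genes in LacQ140 and was not counted over all genes for LacQ140_8M. *Cacng3* had 71.2, 91.3 and 106 CPM in WT, 74.8, 83.2 and 96.2 CPM in LacQ140_A and 77.9, 86.2 and 103 CPM in LacQ140_2M at 6 months. Its 12-month values were 109, 124 and 136 CPM in WT, 92.8, 102 and 119 CPM in LacQ140_A, 66.9, 95.2 and 105 CPM in LacQ140_2M and 77.4, 94.2 and 100 CPM in LacQ140_8M. The WT mice of that age lay above every LacQ140, LacQ140_2M and LacQ140_8M mouse. How many of all genes separate in this way was not counted, and WT differs from LacQ140 in IPTG as well as genotype.

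Group means of members without a call between groups of 1 tissue and age are given here as ranges over the striatal groups. *Gria1* means lay between 380 and 434 CPM at 6 months and between 429 and 467 CPM at 12 months, and those of *Gria2* between 380 and 412 and between 300.9 and 349 CPM. *Grin1* means lay between 348 and 385 and between 437 and 496 CPM. The TARP *Cacng7* had means of 137 to 149 and 146 to 162 CPM, and *Grik5* of 190 to 206 and 243.8 to 288 CPM. *Grik3* had 81.1 to 92.8 and 102 to 118 CPM, *Grin2a* 62.9 to 74.8 and 81.4 to 94.1 CPM, *Gria4* 59.5 to 66.8 and 56.2 to 62.8 CPM, and *Cacng8* 21.4 to 25.0 and 28.7 to 31.1 CPM. Among less abundant members, *Grm7* had 36.5 to 40.4 and 39.1 to 43.4 CPM, *Grin3a* 15.5 to 17.4 and 16.7 to 19.5 CPM, and *Grip2* 13.4 to 15.0 and 14.2 to 16.5 CPM. *Cacng5* had 10.7 to 12.0 and 11.1 to 14.8 CPM, *Grik4* 9.76 to 11.7 and 10.5 to 13.6 CPM, and *Grm8* 8.44 to 9.98 and 9.07 to 11.2 CPM. At the lowest levels, *Grin2d* had 6.19 to 7.17 and 8.3 to 9.64 CPM, *Grik1* 4.16 to 4.97 and 4.48 to 5.51 CPM, and *Grm2* 1.11 to 1.81 and 1.68 to 2.27 CPM. The highest *Grm2* mean, that of 12-month LacQ140, rests on male replicate 2 at 8.86 CPM, and the group's median was 1.36 CPM.

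Of the other 49 synapse genes, LacQ140_A had 3 higher than LacQ140 in 6-month striatum (*Shank3*, *Gsg1l* and *Neto2*) and 2 at 12 months (*Lrrtm1* and *Neto2*). LacQ140_2M had 3 at 6 months (*Homer1*, *Gsg1l* and *Neto2*) and 3 at 12 months (*Shank3*, *Sorcs2* and *Gsg1l*), and LacQ140_8M had 0. At 6 months 3 of 49 is 6.12%, beside 1.88% of all genes called in LacQ140_A and 1.26% in LacQ140_2M, or 3.96% and 2.87% of those kept by filterByExpr. At 12 months the shares were 4.08% and 6.12%, beside 0.91% and 0.608%, or 2.08% and 1.19%. Projection neuron markers rose beside them, 9 of 10 in LacQ140_A and 8 in LacQ140_2M at 6 months, and 4 and 5 at 12 months.

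Whether the partly repressed allele still leaves a difference was read from LacQ140_A against WT, which shares no library with LacQ140 against WT + IPTG. In 6-month striatum 0 members were called (0.91% of all genes, 0 members by DESeq2, and 10 members and 12.5% of all genes at an unadjusted p under 0.05). At 12 months 5 were lower in LacQ140_A, with 3.15% of all genes called, 1.91% lower, and 6.46% of those kept by filterByExpr. *Grid1* had 87.8, 99.4 and 106 CPM in WT and 73.4, 82.5 and 84.4 CPM in LacQ140_A, without overlap (-0.3, SE 0.045, adjusted p = 1.9e-06). Such separation held for 0.735% of all genes. *Grik2* had 61.4, 67.4 and 80.5 CPM in WT and 45.4, 56.4 and 64.2 CPM in LacQ140_A (-0.29, SE 0.058, adjusted p = 0.00038). *Grm5* had 168, 186 and 234 CPM and 96.4, 159 and 196 CPM (-0.35, SE 0.09, adjusted p = 0.0084). *Grm4* was lower by a log2 value of -0.28 (SE 0.077, adjusted p = 0.015), and *Cacng4* by -0.27 (SE 0.053, adjusted p = 0.00037). The last call rests close to the bound, and it held in 8 of 19 fits with 1 library left out (-0.29 to -0.25), lapsing without LacQ140_A F2, F3, F4, F5, M1 or M5 or WT F3, F5, M3, M4 or M5. It also lapsed under filterByExpr and with the replicate number as a block (both -0.26). The *Grm4* call lapsed without LacQ140_A F1 or F3 or WT M2 or M5, and that of *Grik2* without LacQ140_A F3 or WT F2. The number of members called ran from 2 without LacQ140_A F3 to 8 without LacQ140_A M3. *Cacng4*, *Grik2*, *Grm4* and *Grm5* were called lower here and in LacQ140 against WT + IPTG at 12 months, 80.0% of the 5 and 36.4% of the 11. The matching shares over all genes were not counted. Of 10 projection neuron markers 9 were lower in LacQ140_A than in WT at 12 months (median -0.53) and 1 at 6 months.

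The genotype difference on IPTG was then compared directly with that without IPTG. At 12 months it was called lower on IPTG for 2 members of the striatum, with 0.777% of all genes called, 0.5% lower, and 1.98% of those kept by filterByExpr. For *Grm4* the means were 54.8 CPM in LacQ140 against 92.9 CPM in WT + IPTG, and 66.0 CPM in LacQ140_A against 80.3 CPM in WT (difference -0.48, SE 0.11, adjusted p = 0.014). For *Grin2c* they were 40.6 against 55.5 CPM, and 45.3 against 47.8 CPM (-0.38, SE 0.088, adjusted p = 0.017). Part of each difference lies in the controls, since WT + IPTG stood above WT in both genes. *Grm3* had -0.39 (adjusted p = 0.14), *Cacng3* -0.24 (adjusted p = 0.37) and *Cacng4* -0.23 (adjusted p = 0.15). At 6 months 0 members passed (0.542% of all genes, and 4 members and 10.0% of all genes at an unadjusted p under 0.05), while DESeq2 called *Grip1*, which edgeR gave as 0.29 (adjusted p = 0.093). In the cortex LacQ140_A against WT gave 0 members at 6 months (0.425% of all genes) and 12 months (0.0174%), and the difference of the genotype effects gave 0 as well (0.0% and 0.0029%). DESeq2 called 0 in each, and 4 to 6 members and 5.79% to 11.6% of all genes had an unadjusted p under 0.05.

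**Figure D5:**
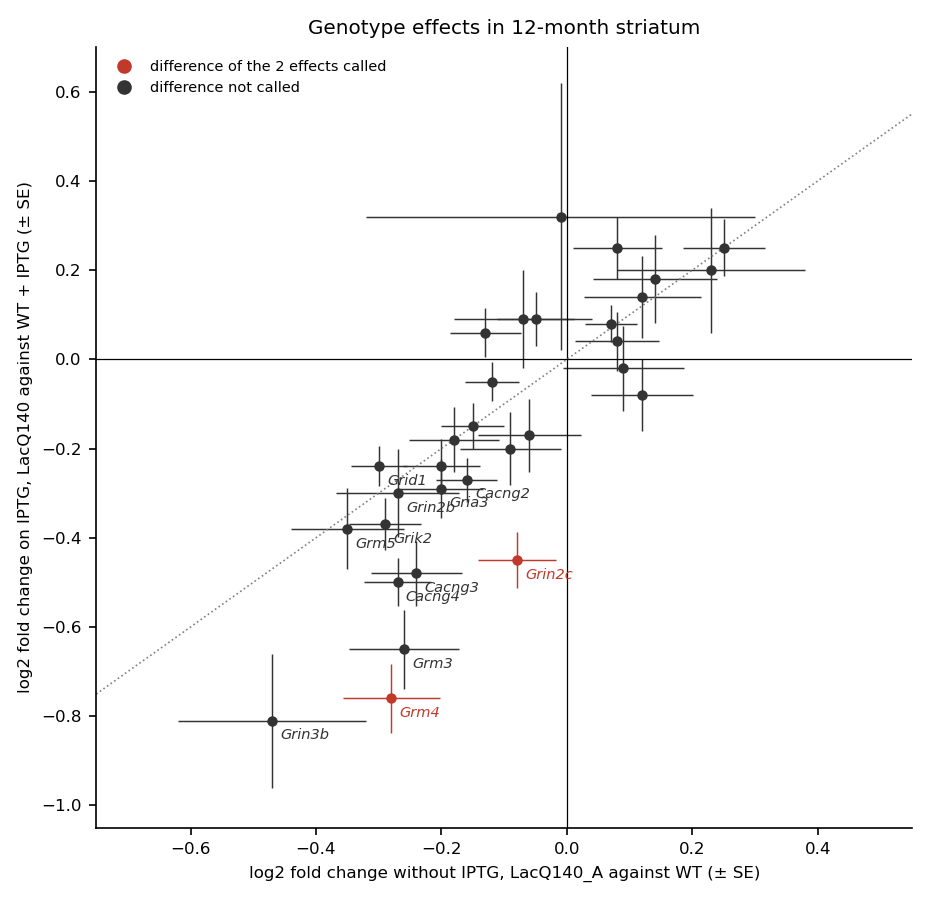
Log2 fold change (± SE) of each gene in 12-month striatum on IPTG (LacQ140 against WT + IPTG, vertical) against that without IPTG (LacQ140_A against WT, horizontal); the 2 axes share no library. Genes called in either comparison are named, the dotted line marks equal changes, and red marks *Grin2c* and *Grm4*, whose 2 changes were called different.

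A last comparison, added after seeing the data, set the LacQ140 change at 12 months against that at 6 months in striatum. It was called lower at 12 months for *Grid1* (-0.28, SE 0.074, adjusted p = 0.019) and *Grin2a* (-0.41, SE 0.12, adjusted p = 0.049), with 2.07% of all genes called, 1.4% lower, and 5.64% of those kept by filterByExpr. *Grid1* went from 0.03 at 6 months to -0.24 at 12 months, and *Grin2a* from 0.22 to -0.18, with neither called at a single age. Both calls were close to the threshold: *Grid1* was lost with only the groups compared in the fit (adjusted p = 0.062) and *Grin2a* under DESeq2's size factors (adjusted p = 0.051). *Grin2b* (-0.47, adjusted p = 0.063), *Grik3* (-0.36, adjusted p = 0.071) and *Grm4* (-0.39, adjusted p = 0.075) did not pass, but under filterByExpr all 3 were called, 5 members in all. Each age is also a batch, as stated above.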

How the data were processed

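Striatum and cortex RNA-Seq of 217 libraries was used. The authors deposited expected counts per gene (estimated counts, 32.52% of the values above 0 not exactly whole), as 1 table per age. The aligner, counter and strand setting are not given in the sources used here, and GRCm38 is the build in the submitters' processing notes. Library totals ran from 33292057 to 68038831 counts, so precision is lowest for *Grin3b* and *Grm2*. Of 54532 genes, 54495 were matched to the annotation. Groups came from the sample labels, and each library is 1 mouse and tissue.

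Counts were rounded, genes with at least 1 count kept, libraries scaled by TMM, and all groups of a tissue and age fitted together with edgeR 4.0.16 (quasi-likelihood F-test, two-sided, R 4.3.3, Benjamini-Hochberg adjustment over all genes). A gene was called at an adjusted p under 0.05 with a change of at least 20%. Comparisons between tissues used the mouse as a block. SE was taken from the log2 fold change and its F. Levels per kb used the longest protein-coding transcript. Alternatives were DESeq2 1.42.0, other size factors, a low-count filter (filterByExpr), sex, a replicate block, only the groups compared, no fold bound, a length-slope covariate and 1 library left out. The scripts were tested on simulated data. Tables and plots used Python 3.11.15, pandas 2.3.3, numpy 2.4.6 and matplotlib 3.10.9.

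All 31 genes are named, with every striatal group's values for those called in LacQ140 against WT + IPTG striatum at both ages and at least fold change and adjusted p for those called at 1 age. Of the 49 other synapse genes, the 3 with the smallest p per direction and age are named. The members, the other lists and the tests were chosen with earlier results of these data known. Of the 31 members, 15 share exon sequence with another annotated gene, mostly small noncoding genes. No 2 libraries of a group agreed within sampling noise (lowest chi-square per degree of freedom 6.15 over 963 pairs).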

Additional observations from a re-analysis of the deposited data

Results flagged for a closer look

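Single mice stood far from the rest of their group in 11 of 132 tests (12 genes, 11 striatal groups), where chance gives about 1 in 20. Of these, *Cacng2* had 46.9 CPM in WT + IPTG F1 at 6 months (group median 60.7), 87.9 CPM in LacQ140 F3 at 12 months (74.5) and 79.9 CPM in WT + IPTG M5 at 12 months (91.9). *Cacng4* had 166 CPM in LacQ140_A F4 at 6 months (123) and 108.3 CPM in LacQ140_2M F4 at 12 months (147). *Grin2c* had 54.4 CPM in the same LacQ140_A F4 library (41.1). *Gria3* had 98.5 CPM in WT + IPTG M4 (125.4) and *Grm4* 65.1 CPM in WT + IPTG M5 (93.7), both at 12 months. *Grin2b* had 199 CPM in LacQ140_8M F5 (290), *Grm3* 65.2 CPM in LacQ140_2M M5 (53.0) and *Grin3b* 0.229 CPM in 6-month WT + IPTG F1 (0.593).

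Changes that differed between conditions by a test of the difference were as follows. The 12-month striatal genotype difference was lower on IPTG than without it for *Grin2c* (-0.38, adjusted p = 0.017) and *Grm4* (-0.48, adjusted p = 0.014). The 12-month LacQ140 change was lower in striatum than in cortex for *Grik2* (-0.38), *Grid1* (-0.64), *Grm3* (-0.45), *Grm4* (-0.84), *Cacng3* (-0.44) and *Cacng4* (-0.76). The striatal LacQ140 change was lower at 12 than at 6 months for *Grin2a* (-0.41, adjusted p = 0.049) and *Grid1* (-0.28, adjusted p = 0.019). In each of these edgeR's quasi-likelihood test was used.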

How the results depend on the processing

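No called result reversed (uncalled *Grm2* in LacQ140 against WT + IPTG at 12 months went from 0.32 to -0.38 without LacQ140 M2), and of the counts of members called 33 alternative values moved by over 1.5 times. Without the fold bound the counts were 11 for LacQ140 against WT + IPTG in 6-month striatum, 9 for LacQ140_A against WT at 12 months, 2 for LacQ140 in 6-month cortex, and 1 each for LacQ140_A against WT at 6 months (*Grik4*) and for LacQ140_2M against LacQ140 at 6 (*Grik2*) and 12 months (*Grid1*). LacQ140_2M against LacQ140 at 6 months gave 1 (*Cacng4*) under filterByExpr and with only the groups compared. At 12 months *Grm4* made it 1 under DESeq2, filterByExpr, size factors and the length slope, and LacQ140_A against LacQ140 1 under the same settings except size factors. The genotype difference at 6 months gave 1 (*Grip1*) under DESeq2, filterByExpr and the length slope, the tissue difference at 6 months 1 (*Grip1*) under filterByExpr, and LacQ140_A against LacQ140 in 12-month cortex 1 (*Cacng4*, lower) with only the groups compared, a setting that moved all genes called there from 15 to 1896 and in LacQ140 against WT + IPTG from 31 to 441. The alternatives for the age difference and the libraries left out of the comparisons with LacQ140_A were chosen after seeing the data. The age difference gave 5 under filterByExpr and 1 under size factors (*Grid1*, without *Grin2a* at -0.4), and *Grid1* (-0.28) was lost with only the groups compared. With 1 library left out, counts ran from 4 to 6 at 6 months and from 9 to 13 at 12 months for LacQ140 against WT + IPTG, from 1 to 3 for LacQ140_A against LacQ140, from 2 to 8 for LacQ140_A against WT, and from 2 to 3 for the genotype difference. Replicate numbers do not pair the mice (same-number correlations averaged 0.0617 to 0.0804, from -0.67 to 0.77). The replicate block left 1 call in LacQ140_A against LacQ140 at 6 months (*Grm3*) and ended that of *Cacng4* in LacQ140_A against WT (-0.26), which filterByExpr also ended (-0.26) while calling *Grin3b* there. With the length slope as covariate, *Grin2b* and *Gria3* (both -0.25) were no longer called at 12 months, and *Grip1* and *Grik4* (both 0.27) were. *Grid1* lost its tissue difference with tissues unpaired (-0.6), and *Cacng5* (0.26) and *Grik3* (0.24) their 6-month tissue calls under filterByExpr, *Grik3* also under size factors (0.26). The causes were not tested. DESeq2 with the mouse as a block was not run. Depth limits *Grin3b* and *Grm2* most.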
